A study of Homo sapiens with 6 samples.

Results

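A group of 10 genes of the surface and gland cells of the stomach were followed in LS174T, an established human colon adenocarcinoma line that makes mucin: FOXQ1, CTSE, MUC5AC, MUC6, TFF1, TFF2, CLDN18, GKN1, SOX2 and AQP5. They were picked by platform gene symbol, and all their probe sets were taken, 20 of the 54674 on the array. The line was grown in parallel cultures with CompE at 250 nM or with the vehicle DMSO for 48 h, with 3 cultures per group and 1 Affymetrix Human U133 Plus 2.0 array per culture. The labels give only the short name CompE, which commonly stands for Compound E. That compound blocks gamma-secretase, the enzyme whose cut frees the signalling fragment of Notch receptors. All cultures were of the same line, with no other cells or alleles named. The 10 genes were proposed with the CompE and DMSO values already known, so for them the comparison is a description, no p-value is given, and calls by the fit over all genes are counted without being read as evidence.

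In the stomach, surface mucous cells secrete the gel-forming mucin MUC5AC together with the trefoil peptide TFF1, and neck and pyloric gland cells secrete MUC6 with TFF2. Normal colon goblet cells instead make MUC2 and TFF3, and some mucin-producing colon tumours also express gastric genes. Notch signalling in the gut epithelium restrains the choice of secretory fates, and HES1 and OLFM4 are 2 of its usual readouts.

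The 6 arrays were alike in overall level, with median intensities between 36.9 and 38.6. All 9 colon epithelial markers that were checked lay above the level of the array's Bacillus control probe sets, which is an intensity of 45.7 (the 95th percentile of 27 probe sets for transcripts that human RNA does not hold). Of 11 fibroblast, leukocyte and endothelial markers on the array, 6 lay above it. The summed intensity of all 11 was 538 to 676 in DMSO and 593 to 604 in CompE. For the colon markers the sum was 28318 to 30047 over all arrays. The Notch readouts moved in the CompE cultures: in the limma fit HES1 fell 2.81-fold (adjusted p = 0.00198), OLFM4 fell 6.08-fold (adjusted p = 0.000253) and ATOH1, the factor that commits cells to secretory fates, rose 6.13-fold (adjusted p = 0.000892). DLL1 and DLL4, genes of Notch ligands, rose 2.55-fold and 3.49-fold (adjusted p = 0.00164 and 0.000408), and NRARP, a feedback regulator of Notch, changed by -0.32 on the log2 scale (adjusted p = 0.0418, a call that ended whichever array was left out, with values up to 0.126). Over the 14308 genes tested, 653 were called higher and 368 lower, and centring of the arrays on the spiked hybridisation controls gave 340 higher and 1552 lower.

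FOXQ1 and CTSE differed most among the 10 genes, and their upstream sequences are shown because they were lower together. FOXQ1 encodes a forkhead transcription factor that mouse stomach surface cells need to make MUC5AC, and CTSE encodes cathepsin E, an intracellular aspartic protease of gastric surface cells. The letters are the 250 bases before the annotated start, from RefSeq in build GRCh38.p14, on chr6:1311848-1312097 (plus strand) for FOXQ1 and chr1:206023896-206024145 (minus strand) for CTSE. Capitals mark TGGGAA, the core read by the Notch partner RBPJ, and CACNAG, the N box read by HES repressors, each searched on both strands.
FOXQ1: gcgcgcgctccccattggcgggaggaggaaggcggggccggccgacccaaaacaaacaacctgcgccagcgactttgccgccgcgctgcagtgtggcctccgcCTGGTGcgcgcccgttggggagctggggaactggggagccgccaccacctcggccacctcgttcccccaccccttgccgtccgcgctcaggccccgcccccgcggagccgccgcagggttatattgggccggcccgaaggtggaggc
CTSE: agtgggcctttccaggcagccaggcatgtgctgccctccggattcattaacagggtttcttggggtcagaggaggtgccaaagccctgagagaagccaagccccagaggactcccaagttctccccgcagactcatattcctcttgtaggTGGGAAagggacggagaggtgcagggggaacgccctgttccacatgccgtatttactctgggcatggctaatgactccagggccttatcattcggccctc
The CTSE sequence held 1 RBPJ core, 100 to 95 bases before the start, on the strand of the gene, and no N box. The FOXQ1 sequence held 1 N box, 147 to 142 bases before the start on the opposite strand, and no RBPJ core. An RBPJ core occurred in 20.8% of the 35116 promoters of the same length and an N box in 32.0%, so both matches are common. CTSE also held 2 E boxes (CANNTG, found in 61.8% of promoters), neither of which overlapped its capital run, and FOXQ1 held none. Neither sequence held the forkhead motif TGTTTAC, which was in 2.98% of promoters, or the GATA motif AGATAA, which was in 9.17%. The TATA box letters TATAAA (10.7% of promoters) were absent from both, as were the AP-1 letters TGACTCA (4.20%). FOXQ1's sequence was 74.0% G or C and that of CTSE 57.6%. The table of promoters matched 6 of the 10 symbols, and MUC5AC, MUC6, TFF1 and TFF2 had no entry. Of the other symbols matched, CLDN18 held 1 RBPJ core and 2 N boxes in the first of its 2 promoters. Its groups overlapped in intensity. GKN1, SOX2 and AQP5 held no match to either motif.

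Among the regulators, FOXQ1 was lower in every CompE culture. Its intensity was 910.4, 919 and 825 in the DMSO cultures and 381, 341 and 313 in the CompE cultures. The lowest DMSO value was above the highest CompE value, and both groups were far above the Bacillus level. The means were 885 ± 52.0 and 345 ± 34.2 (mean ± SD, n = 3 each), a log2 difference of -1.36 ± 0.09 (SE; 95% interval -1.59 to -1.14), or 2.57-fold. SOX2, a transcription factor of the foregut and stomach, has 4 probe sets on the array, and none passed the filter that leaves out the dimmest 40% of probe sets (those with a mean below an intensity of 24.4). Its single values ran from 1.53 to 24.1 over all 4 probe sets and 6 arrays, and no group stood apart.

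CTSE, the protease gene, was also lower in all CompE cultures. The DMSO intensities were 186, 164 and 158, and the CompE intensities 70.3, 67.5 and 63.6. The groups did not overlap, and the CompE values were close to each other and stayed above the Bacillus level. As 6 of 11 fibroblast, leukocyte and endothelial markers also lay above that level, it does not by itself exclude nonspecific signal. The nonspecific part of the CompE signal was not tested. The means were 169 ± 14.9 and 67.1 ± 3.40 (n = 3 each), a log2 difference of -1.33 ± 0.08 (95% interval -1.53 to -1.13), or 2.52-fold. Its 1 probe set carries the suffix that Affymetrix gives to sets able to match more than 1 transcript. In bulk RNA of this kind, fewer cells with a transcript and less of it per cell cannot be told apart.

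**Figure D1:**
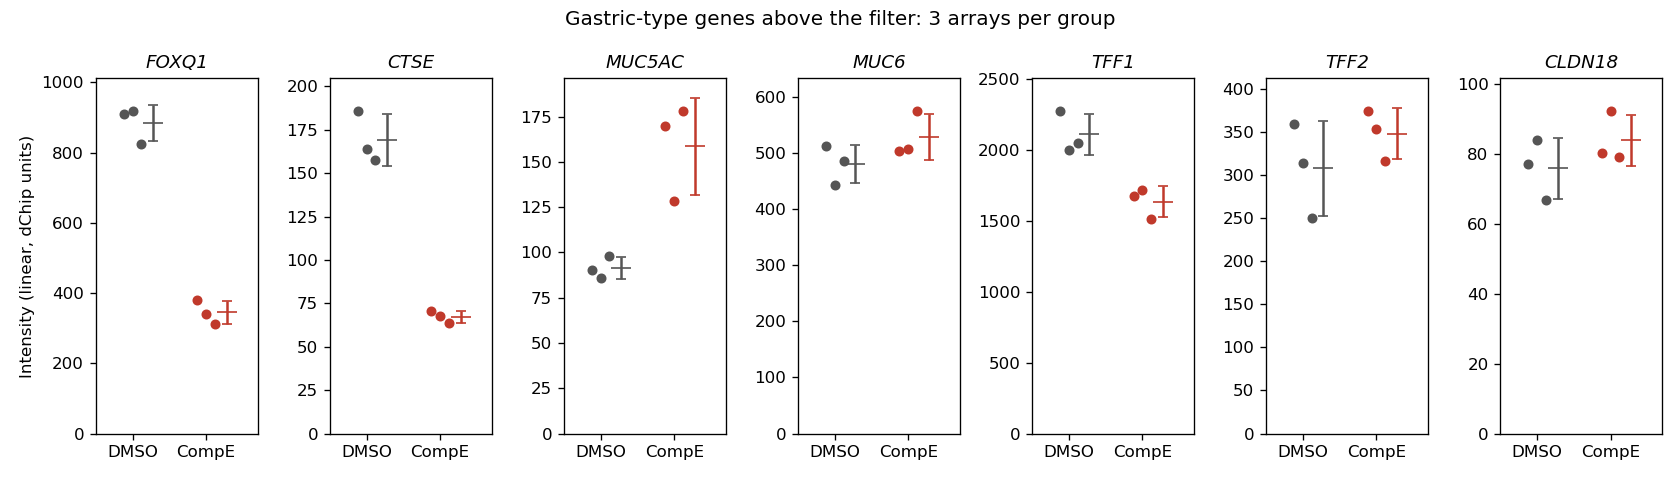
Intensity on a linear axis from 0 of the probe set that stands for each of the 7 gastric-type genes above the filter, with 3 DMSO (grey) and 3 CompE (red) arrays as points and the mean ± SD beside them. FOXQ1, CTSE and TFF1 are lower in CompE and MUC5AC is higher with no overlap, while MUC6, TFF2 and CLDN18 overlap.

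The secreted products did not follow a common course. MUC5AC, the gel-forming mucin of surface cells, was higher in CompE. Its brightest probe set (214385_s_at) read 90.5, 86.1 and 98.1 in DMSO and 170, 128 and 178 in CompE. The groups did not overlap, although CompE replicate 2 lay well below the other CompE cultures. The means were 91.6 ± 6.06 and 159 ± 26.8 (n = 3 each), a log2 difference of 0.78 ± 0.14 (95% interval 0.44 to 1.12), or 1.72-fold.

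The 3 other MUC5AC probe sets gave smaller differences. The set 214303_x_at read 81.7, 115 and 99.4 in DMSO and 113, 134 and 138 in CompE, a log2 difference of 0.39 ± 0.15 with overlapping groups. The set 217187_at read 48.1, 43.6 and 40.4 in DMSO, around the Bacillus level, and 69.6, 61.0 and 56.6 in CompE. Its groups did not overlap, its log2 difference was 0.50 ± 0.11, and the increase was at least 1.36-fold when the Bacillus level stands in for the DMSO mean. The set 217182_at was below the filter, between 17.3 and 32.1 on all arrays, with a log2 difference of 0.00. The sets thus agreed in sign where they lay above the filter but not in size, and the median over the 3 of them was 0.50. The letters s and x in these names mark probes that can match related transcripts, so signal from related mucins in them was not tested.

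TFF1, the trefoil peptide gene that surface cells express together with MUC5AC, was lower in CompE, opposite in sign to MUC5AC. Its intensity was 2279.6, 2005 and 2052 in DMSO and 1679.8, 1720.1 and 1515 in CompE. The groups did not overlap, and the gap from 1720.1 to 2005 was wider than the SD of either group. The means were 2112 ± 147 and 1638 ± 109 (n = 3 each), a log2 difference of -0.37 ± 0.08 (95% interval -0.56 to -0.17), or 1.29-fold.

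MUC6 and TFF2, the mucin and trefoil pair of gland cells, showed no difference beyond their spread. MUC6 (214133_at) read 512, 444 and 486 in DMSO and 504, 507 and 576 in CompE, a log2 difference of 0.14 ± 0.08 (95% interval -0.07 to 0.34) that became -0.0042 when the arrays were centred on their hybridisation controls. Its other probe set (1565666_s_at) read 432, 443 and 412 in DMSO and 305, 262 and 526 in CompE. There CompE replicate 3 lay above every DMSO value and the other CompE cultures lay below them, so the log2 difference of -0.30 had an SE of 0.26. TFF2 read 360, 314 and 250.2 in DMSO and 375, 353 and 317 in CompE, a log2 difference of 0.19 ± 0.15 (95% interval -0.17 to 0.55). These intervals still allow an increase of TFF2 by 0.55 log2 units or a small decrease.

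Of the structural and surface genes, CLDN18, which encodes a tight junction claudin with a stomach isoform, had 1 of its 4 probe sets above the filter. That set (214135_at) read 76.9, 84.0 and 66.7 in DMSO and 80.2, 92.3 and 79.1 in CompE, a log2 difference of 0.15 ± 0.11 (95% interval -0.12 to 0.41). The groups overlapped. The other 3 sets ranged from 0 to 15.8. Some markers of other cell types read higher in DMSO than 214135_at, such as PECAM1 (mean 165) and COL1A1 (96.0). Others read lower, such as CD14 (56.1). Whether 214135_at reads CLDN18 transcript or nonspecific signal was not tested. GKN1, the gastrokine secreted by surface cells, read 8.75, 18.3 and 1.74 in DMSO and 30.3, 18.5 and 5.996 in CompE, and AQP5, a water channel of pyloric gland cells, read 24.1, 6.99 and 5.47 in DMSO and 18.9, 6.54 and 22.2 in CompE. Both were below the Bacillus level on every array, so no fold is given. At this signal, a difference in GKN1, SOX2 or AQP5 was not detectable.

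**Figure D2:**
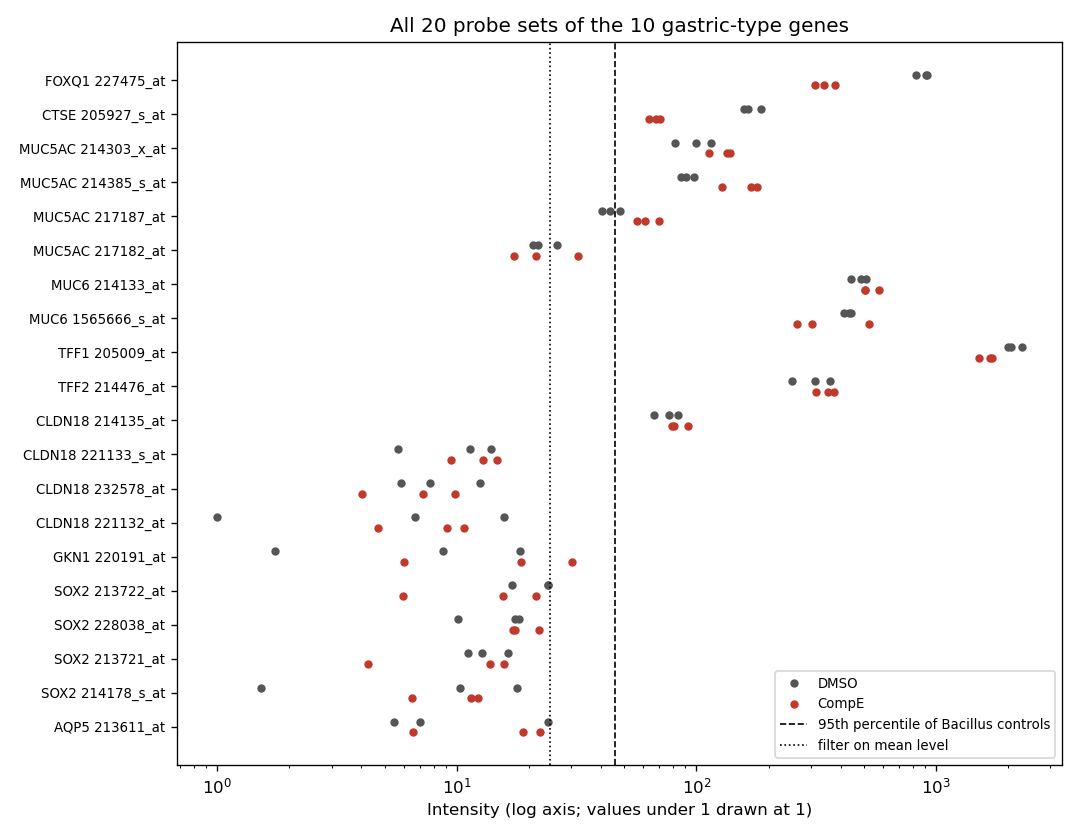
Intensity on a log axis of all 20 probe sets of the 10 genes, with the 3 DMSO arrays in grey and the 3 CompE arrays in red, the dashed line at the Bacillus level of 45.7 and the dotted line at the filter of 24.4. All probe sets of GKN1, SOX2 and AQP5, 3 of CLDN18 and 1 of MUC5AC have means left of the dotted line.

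In all, 7 of the 10 genes and 10 of the 20 probe sets passed the filter. Limma called 2 of the 7 lower (FOXQ1 and CTSE) and 1 higher (MUC5AC), where 2.57% of all genes tested were called lower and 4.56% higher. Groups did not overlap with CompE lower for 3 of the 7, where this held for 13.0% of all genes, and with CompE higher for 1 of the 7, where it held for 19.1%. The genes were chosen with this contrast known, so nothing is read from these shares. The call of MUC5AC ended when any array but CompE replicate 2 was left out, where its log2 difference ran from 0.69 to 0.83, and without CompE replicate 2 the difference was 0.93.

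**Figure D3:**
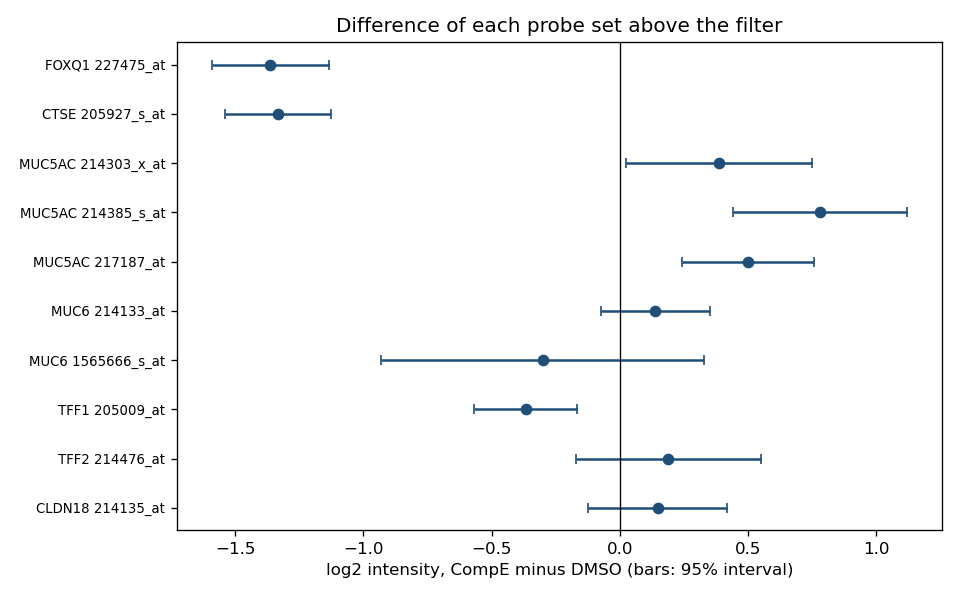
Difference in log2 intensity, CompE minus DMSO, for the 10 probe sets above the filter, with 95% intervals from the limma fit over all probe sets. The intervals of FOXQ1, CTSE and TFF1 lie below 0, those of the 3 MUC5AC sets above 0, and those of MUC6, TFF2 and CLDN18 include 0.

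Gene position was not used to choose the genes, and the 3 annotated genes on either side of FOXQ1, CTSE, MUC5AC and TFF1 were examined. On chromosome 11, MUC5AC lies between MUC2 and MUC5B in gene order. MUC2, the main mucin of the intestine, read 502, 454 and 486 in DMSO and 1036, 981 and 961 in CompE and rose 2.07-fold (log2 difference 1.05 ± 0.06, adjusted p = 0.00164). MUC5B, a mucin of airway and salivary glands, read 156, 136 and 167 in DMSO and 255, 252 and 288 in CompE and rose 1.73-fold (0.79 ± 0.10, adjusted p = 0.0120, or 0.0543 without CompE replicate 1). By the brightest probe set of each gene, all 3 neighbouring mucins were thus higher in each CompE culture than in any DMSO culture. This held for 19.1% of all genes tested, and MUC5AC was chosen with this contrast known. The mucin gene MUC6 was not among the genes of this window, and its groups overlapped (log2 difference 0.14). The groups overlapped for the MUC5AC sets 214303_x_at and 217182_at, the latter below the filter. Signal from related mucins in 214385_s_at was not tested. The non-coding LINC02688 nearby was below the Bacillus level on all arrays.

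On chromosome 21 the trefoil genes lie together and gave different signs. TFF3, the trefoil peptide of intestinal goblet cells, read 3380.0, 3209.5 and 3128 in DMSO and 4921, 5031 and 4733 in CompE and rose 1.51-fold (log2 difference 0.60 ± 0.05, 95% interval 0.46 to 0.73, adjusted p = 0.00487). The log2 difference was -0.37 for TFF1 and 0.19 for TFF2, which lies between them in order. Both are descriptions, because these 2 genes were chosen with this contrast known. Limma called neither TFF1 nor TFF2 in the reported fit. TMPRSS3, a serine protease gene on the other side of TFF1, had a log2 difference of -0.50 ± 0.25 (limma adjusted p = 0.288). Without DMSO replicate 3, which was the lowest DMSO culture, the difference was -0.79 (adjusted p = 0.0391). The CompE values of TMPRSS3 (39.8, 41.0 and 34.6) and its DMSO replicate 3 value (36.4) lay below the Bacillus level, which limits the reading of its size. Next to CTSE, RHEX read 70.8 ± 4.43 in DMSO cultures and 84.3 ± 1.47 with CompE (log2 difference 0.25 ± 0.06, adjusted p = 0.0703). Of the 6 genes around FOXQ1, only FOXF2 had a probe set with 1 gene on the array, and it did not pass the filter.

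**Figure D4:**
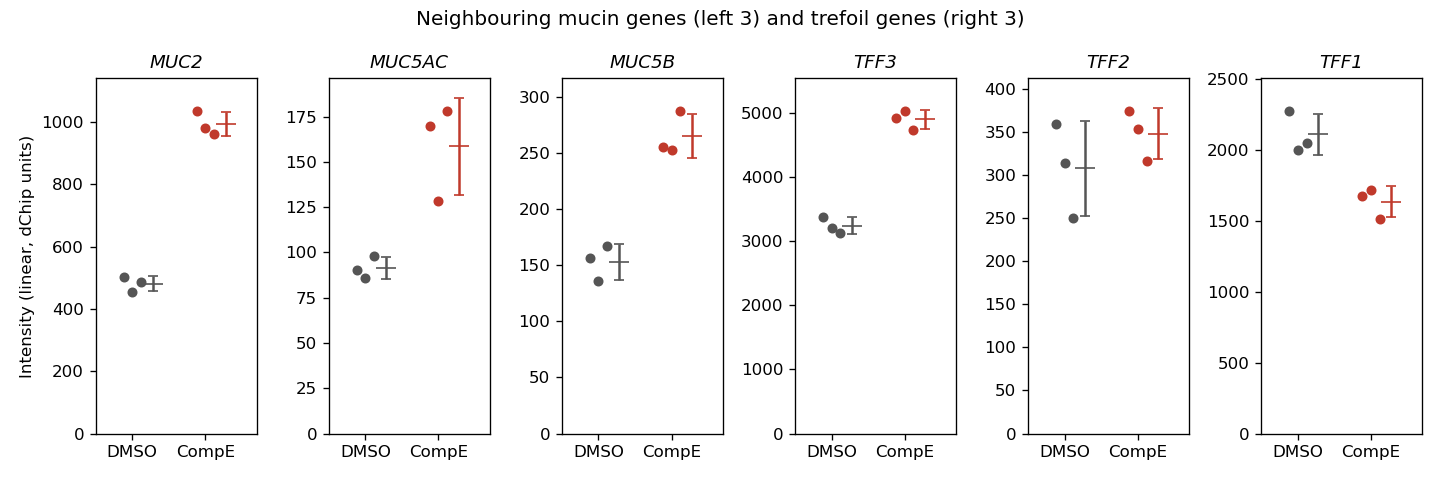
Intensity on linear axes from 0 of the brightest probe set of the neighbouring mucin genes MUC2, MUC5AC and MUC5B and the trefoil genes TFF3, TFF2 and TFF1, with 3 arrays per group as points and the mean ± SD. The 3 mucins and TFF3 are higher in CompE with no overlap, TFF2 overlaps and TFF1 is lower.

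Other genes of gastric cells were taken from lists written by role. Of 10 further surface cell genes, 6 were tested, of which 1 rose and 0 fell by limma (with no adjustment of p, likewise 1 higher and 0 lower). Over all 14308 genes tested, 4.56% were called higher and 2.57% lower, and at an unadjusted p under 0.05 the numbers were 2145 and 1366. The surface cell gene called was CAPN9, a digestive tract calpain gene, which went from 140 ± 0.873 to 248 ± 13.4 (1.77-fold, log2 difference 0.82 ± 0.06, adjusted p = 0.00224). The median of the 6 was 0.12, beside 0.02 over all genes tested, and rested on single arrays: it was -0.03 without DMSO replicate 3 and 0.32 without DMSO replicate 2. GKN2, VSIG1, CAPN8, SULT1C2 and MUC1 were tested and not called. Of 15 gland cell genes, among them those of pepsinogens and the acid pump, 12 were on the array and 6 were tested, and 0 were called (0 at an unadjusted p under 0.05). Only the potassium channel gene KCNE2 lay above the Bacillus level, and the smallest p belonged to PGC, a pepsinogen gene that read 34.6 ± 9.17 in DMSO cultures and 24.3 ± 3.17 with CompE (adjusted p = 0.212). The median of the 6 was -0.03, or -0.14 without DMSO replicate 2 and 0.09 without CompE replicate 1.

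Of 10 foregut and gastric transcription factors, 7 were tested, 2 rose and 0 fell (4 higher and 0 lower with no adjustment of p), with a median of 0.41. Over all 14308 genes tested, 4.56% were called higher and 2.57% lower. At an unadjusted p under 0.05, 2145 of them were higher and 1366 lower. FOXA2, a forkhead factor of foregut endoderm, rose 1.60-fold from 486 ± 12.3 to 779 ± 56.3 (adjusted p = 0.00624). FOXA3, a related factor, rose 1.28-fold from 197 ± 13.5 to 253 ± 13.0 (adjusted p = 0.0427). The call of FOXA3 ended whichever array was left out (adjusted p up to 0.149 over the alternatives) and with the arrays centred on their median. These forkhead genes were thus opposite in sign to FOXQ1, another member of their family. GATA6, which is also expressed in the intestine, was at 1051 ± 29.3 and 1045 ± 12.6.

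Of 18 intestinal identity genes, 15 were tested, 4 rose and 2 fell (4 higher and 4 lower with no adjustment of p), with a median of 0.06, where 4.56% of all genes tested were called higher and 2.57% lower. Besides MUC2 and TFF3, CDX2, the transcription factor that specifies intestine, rose 1.35-fold from 539 ± 14.1 to 727 ± 15.9 (adjusted p = 0.00873). CDH17, an intestinal cadherin gene, fell by 0.31 on the log2 scale (adjusted p = 0.0229), and that call ended whichever array was left out (adjusted p up to 0.115 over the alternatives). Both intestinal and gastric genes therefore included members that were higher and members that were lower.

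Of genes known to regulate MUC5AC in other mucous epithelia, 13 were tested, 3 rose and 2 fell (the same numbers with no adjustment of p), with a median of 0.07. Over all genes tested 4.56% were called higher and 2.57% lower. EREG, an EGF receptor ligand gene, fell 2.33-fold from 1095 ± 8.69 to 471 ± 46.3 (adjusted p = 0.00194), and HBEGF, another ligand gene, fell by 0.40 on the log2 scale (adjusted p = 0.0406). SPDEF, a goblet cell transcription factor gene, rose 1.27-fold (adjusted p = 0.0325). The calls of HBEGF and SPDEF ended in most fits with 1 array left out, that of SPDEF in all but the fit without DMSO replicate 1 (adjusted p up to 0.116) and that of HBEGF in all 6 (up to 0.115). FOXA2 and FOXA3 are on this list as well. Of the other aspartic proteases, the family of CTSE, 5 were tested and 0 were called (0 at an unadjusted p under 0.05). CTSD, which encodes cathepsin D, was at 624 ± 16.3 in DMSO and 597 ± 16.1 in CompE.

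**Figure D5:**
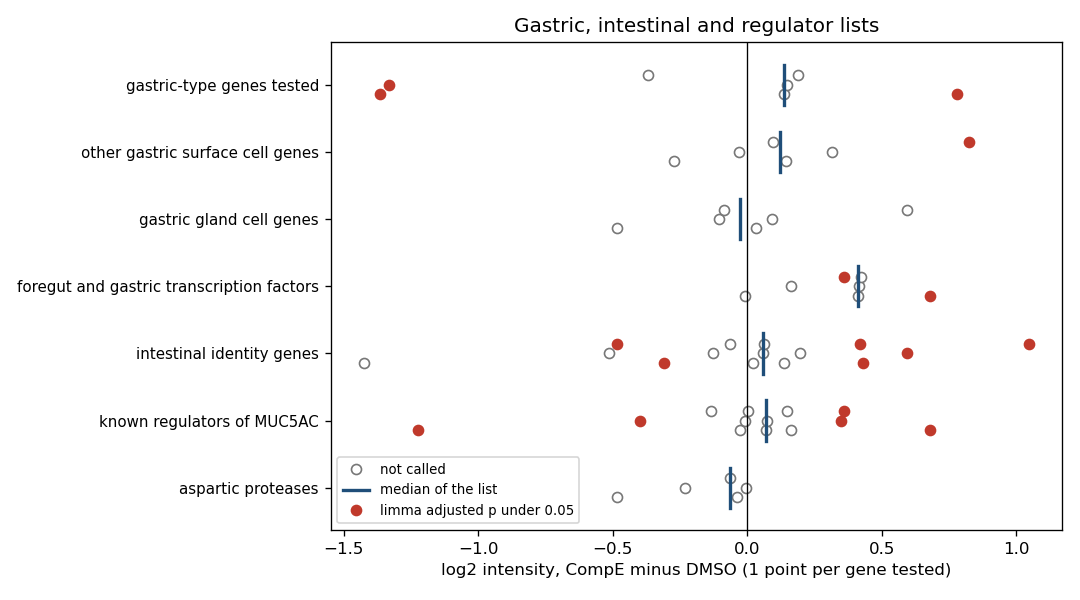
Difference in log2 intensity, CompE minus DMSO, with 1 point per gene tested in each list, filled where the limma adjusted p was under 0.05, and a bar at the median of the list. FOXQ1 and CTSE lie at -1.36 and -1.33, CAPN9 among the other surface cell genes at 0.82, and EREG among the regulators of MUC5AC at -1.22.

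The genes whose log2 intensity over the 6 arrays was most like that of the 4 leading genes were found by Pearson correlation among 14301 genes. These points share 2 conditions and 1 scaling, so the values mostly carry the difference between the groups and are a description. For FOXQ1 they were AHR, a ligand-activated transcription factor gene (r = 0.999), SLC6A20, an amino acid transporter gene (r = 0.999), and HES1 (r = 0.997). For CTSE they were TPST2, a tyrosine sulfotransferase gene, EMP1, an epithelial membrane protein gene, and TNS4, a tensin gene (r = 0.998 to 0.999). For MUC5AC they were NUF2, a kinetochore gene, DGKH, a lipid kinase gene, and ZNF85, a zinc finger gene (r = 0.997 to 0.999), and their differences were small, from 1.12-fold to 1.25-fold. For TFF1 they were RWDD1, SRP72, a gene of the signal recognition particle, and MYOF, a membrane repair gene (r = 0.997 for each). The likeness is in pattern and not in size: AHR went from a mean of 1278 in DMSO to 1046 in CompE (1.22-fold), SLC6A20 from 622 to 324 (1.92-fold) and EMP1 from 168 to 48.3 (3.45-fold).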

How the data were processed

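The authors amplified and labelled RNA of each culture from the 3' end, hybridised it and scaled the arrays against each other with dChip, per the labels' protocols and the series design text. The deposited values are intensities on a linear scale, with 54674 probe sets. The dChip version and any use of mismatch probes were not given in the sources used here. Their own selection of stable probes is not applied in the table and was not used.

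A floor of 1 was applied before taking log2. The 62 control probe sets and the lowest 40% by mean log2 over all 6 arrays were left out. Names came from the 2016 platform annotation, updated by Entrez identifier (41043 of 41097 probe sets with 1 gene matched). The brightest probe set stood for its gene, which left 14308 genes, and all 26962 probe sets were fitted separately. CompE was compared with DMSO by limma 3.58.1 in R 4.3.3 (lmFit, eBayes, two-sided, no covariate), with Benjamini-Hochberg adjustment over all genes and calls at 0.05. On simulated data with 200 changed genes out of 14308, 76.9% of 1-unit and 93.6% of 2-unit log2 changes were called. For arrays, their number limits the precision: the median SE was 0.08.

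The members, lists, tests and alternatives were chosen with earlier results of these data known. Named were all members, the Notch checks, at most 4 called genes per list (or the smallest p where none was called), tested neighbours and the 3 genes most like each leading gene. GATA6, CTSD, KCNE2 and the surface cell genes listed as tested and not called were named after their values were seen. The replicate numbers were not used to pair cultures.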

Additional observations from a re-analysis of the deposited data

How the results depend on the processing

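FOXQ1 and CTSE kept their sign and their call in all 14 refits (log2 differences -1.51 to -1.30 and -1.47 to -1.15). MUC5AC kept its sign but lost its call with no filter on dim probe sets (0.78), with the arrays centred on their hybridisation controls (0.64) and with the replicate block (0.78), and its value was 0.50 as the median over its probe sets. With 1 array left out it ran from 0.69 to 0.93. TFF1, not called in the reported fit, was called with the lowest 60% left out (-0.37), log2(value + 16) (-0.36), quantile normalization (-0.37), centring on hybridisation controls (-0.51) and array weights (-0.35), and ran from -0.40 to -0.31 with 1 array left out, where it was not called. MUC6 reversed under hybridisation control centring (-0.0042) and as the median over its probe sets (-0.0811). With 1 array left out LINC02688 ran from -0.88 to 0.0013, reversed without CompE replicate 2. The ranges with 1 array left out were 0.08 to 0.19 for MUC6, 0.05 to 0.31 for TFF2 and 0.06 to 0.22 for CLDN18. The causes were not tested.

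Counts of genes called higher and lower (653 and 368) were 242 and 121 with no filter, 1117 and 634 with the lowest 60% left out, 340 and 1552 centred on hybridisation controls (the median of all genes moved from 0.02 to -0.12), 70 and 32 with the replicate block, and 159 to 354 and 89 to 170 with 1 array left out. For probe sets (734 and 419) they were 147 and 69, 1502 and 1020, 375 and 1612, 18 and 13, and 123 to 265 and 70 to 143. Same-numbered cultures did not deviate together over genes (correlations of -0.10 to 0.02). With so few cultures per group this cannot settle whether equal numbers mark paired cultures. Under the replicate block TFF3, FOXA2 and CDX2 had limma adjusted p-values of 0.0556, 0.0631 and 0.0811. Under hybridisation control centring the medians of the surface, intestinal and MUC5AC regulator lists were -0.02, -0.08 and -0.07. Of 485 refits of 35 other genes with values in the text, 405 kept sign and side of the threshold, 64 lost the call, 10 gained it and 6 reversed. The reversals besides LINC02688 were in GATA6 (-0.0312 to 0.0058 with 1 array left out) and KCNE2 (-0.0264 to 0.16 with 1 array left out and -0.0504 under hybridisation control centring). With the lowest 60% left out no gland cell gene remained for a median. Dim signal limits GKN1, SOX2 and AQP5.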
